A study of Mus musculus with 8 samples.

Results

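The subject is the comparison of a Gtf2i knock-in clone of a mouse thymic epithelial cell line with its nickase control. It rests on 6 arrays of the 8 in the series, namely the 3 arrays of knock-in clone 1 and the 3 arrays of the control, and every array labelled with either group was taken. The cells are TEC71, an immortalized line of medullary thymic epithelial cells grown as a monolayer. Per the labels, control cells had been transfected with the Cas9 nickase and a single guide RNA, and clone 1 carries the mutation T1211A in Gtf2i, written Gtfi2i there, placed by knock-in. All clone 1 arrays therefore stand for 1 edited clone, and what separates that clone from the transfected control cells in other ways than the edit cannot be told apart from the edit here. The labels do not say whether the arrays of a group came from separate cultures, so the p-values speak only to the spread of these arrays. The other 2 arrays, of clone 3, do not enter any value below. After a filter on dim probes, 24830 transcripts were compared, of which 14498 carry a gene symbol.

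TFII-I, the product of Gtf2i, is a transcription factor that binds promoters and also shuttles in the cytoplasm, where it takes part in signalling downstream of growth factor and antigen receptors. Mutation of GTF2I is a recurrent event in human tumours of the thymic epithelium. Medullary thymic epithelial cells present self antigens to developing T cells, and they depend on NF-kB signalling for their own maturation. They also secrete chemokines that guide thymocytes into the medulla.

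Levels are given as the log2 of the background-corrected fluorescence signal minus the 75th percentile of the same array. A level of 0 is thus the brightness that 75% of the probes of that array stay under. Signal stood well above background for 55.3% to 59.3% of the 56605 probes of an array. The 75th percentile of the signal lay between 268 and 377, and no spot was saturated. Across the transcripts compared, levels of control arrays correlated at 0.995 with each other, those of clone 1 arrays at 0.994, and arrays of different groups at 0.967 to 0.97. These correlations run across transcripts, which are not independent replicates. All arrays lie on 1 slide, the 3 controls together with clone 1 array 1 in row 1 and the other 2 clone 1 arrays in row 2. On the first clone 1 array the brightest spike-in control had a median signal of 2797, against 17164 to 30390 on the other arrays. Counts without that array stand beside the results they change.

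Gtf2i itself was lower in clone 1. Its brightest probe stood at 4.40, 4.46 and 4.37 on the control arrays and at 3.97, 3.88 and 4.01 on the clone 1 arrays, so the groups did not overlap. The same held for 53.8% of all tested genes with a symbol. The difference was -0.46 log2 (SE 0.10, adjusted p = 0.0105, limma). A further Gtf2i probe gave -0.45 log2 (adjusted p = 0.011), and another dim one gave -0.25 log2 (adjusted p = 0.11). An expression probe does not read a point mutation, so these values check nothing about the edit. With the slide row as a term in the fit the difference was -0.44 log2 and missed the threshold (adjusted p = 0.0907), and the row 1 arrays alone gave -0.44 log2 (adjusted p = 0.114). Gtf2ird2, a related gene of the same family, rose by 0.69 log2 (SE 0.10, adjusted p = 0.00216), from 1.35, 1.5 and 1.56 in the controls to 2.17, 2.11 and 2.20 in clone 1. Gtf2ird1, another relative, differed by -0.12 log2 (adjusted p = 0.436).

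Clone 1 differed from its control in a large share of the transcripts compared. At an adjusted p under 0.05 in limma's test, 8022 of the 24830 transcripts passed (32.3%), 3694 of them higher (14.9%) and 4328 lower (17.4%). Among the 14498 genes with a symbol 5336 passed (36.8%), with 2829 higher (19.5%) and 2507 lower (17.3%). A change of at least 2-fold was made by 792 genes upward (5.46%) and by 623 genes downward (4.3%), or by 432 and 328 with normexp background correction. At 4-fold or more there were 260 higher and 221 lower genes, at 8-fold 105 and 106, and at 32-fold 23 and 32. Most changes were thus small, and the median size among all transcripts that passed was 0.70 log2. The median difference over all genes with a symbol was -0.00 log2. Scaled by the median of each array, 3625 transcripts were higher and 3610 lower, so the surplus of lower transcripts depends on the scaling. Without clone 1 array 1, 3092 transcripts were higher and 3870 lower. With the slide row as a term 2056 transcripts were higher and 2375 lower, and the row 1 arrays alone, with a single clone 1 array taken to vary like the controls, gave 1733 and 2081.

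The labelled cell type was checked against its markers. All 9 epithelial markers, among them Krt5, Krt14, Krt8 and Epcam, were above background on every array. Of 8 markers of the thymic medulla Cldn3, Cldn4, Cd80 and Tnfrsf11a were above background on all arrays. Aire, the regulator of self-antigen expression, was above background on 1 control and 2 clone 1 arrays, and Fezf2, Ccl21a and Spib on none. The cortical markers Psmb11 and Dll4 were above background on none either. Among markers of other cells, the fibroblast genes Pdgfrb, Dcn, Lum and Thy1 and the endothelial genes Cdh5, Kdr, Tek and Vwf were above background on no array. Summed over their 8 genes, fibroblast markers lay between -0.06 and 0.28 log2 in the controls and between -1.1 and -0.68 log2 in clone 1. Pdgfra, with means of -0.32 in the controls and -1.63 in clone 1, was the brightest and weighs most in this sum. Col1a2, the only other one above background on all arrays, did not pass (-0.13 log2, adjusted p = 0.799, limma). Of the blood markers Cd8a and Adgre1 were above background nowhere, Ptprc on 1 control array, and the summed level ran from 3.20 to 3.71 log2 in the controls and from 3.23 to 3.78 log2 in clone 1. In a bulk sample, fewer cells of a type and less RNA per cell cannot be told apart.

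Among genes measured on all 6 arrays the homeobox gene Rhox5 rose most, 47.0-fold. Nt5e, whose enzyme CD73 forms extracellular adenosine from AMP, stood at -3.45, -3.69 and -3.62 in the controls and at 1.67, 1.58 and 1.80 in clone 1. Aebp1, which encodes a secreted protein of the matrix, went from -0.94, -0.87 and -0.82 to 4.43, 4.32 and 4.53. Neither gene had a clone 1 array near any control array. The rises were 38.6-fold for Nt5e (adjusted p = 3.34e-07) and 39.5-fold for Aebp1 (adjusted p = 2.9e-07). St14, the gene of the membrane protease matriptase, was at -2.63, -2.28 and -2.38 in the controls and at 2.07, 1.95 and 1.74 in clone 1, a rise of 20.4-fold. Bmp4, a ligand of the bone morphogenetic protein family, went from -2.60, -2.64 and -2.36 to 1.69, 1.37 and 1.62, or 17.1-fold. H2bc4, a gene of histone H2B, rose 19.2-fold from -1.75, -1.75 and -1.56 to 2.62, 2.46 and 2.63. The adhesion genes Mpzl2 (33.2-fold) and Alcam (23-fold), the adhesion receptor gene Adgrg6 (25.4-fold) and the GABA transporter gene Slc6a13 (21.6-fold) were also among the 15 largest. Flywch2, Cgref1, Ctsh, Fhl1 and Cpm completed this set, with rises between 20.8-fold and 31.2-fold.

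**Figure D1:**
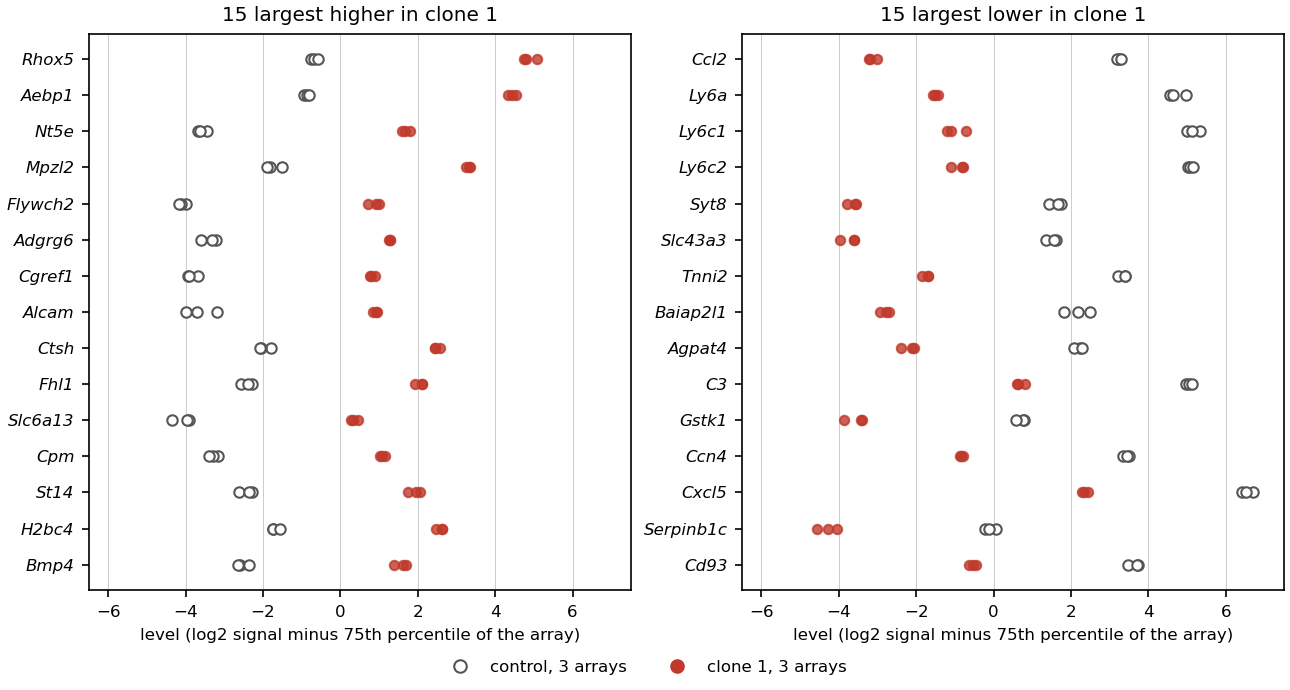
Levels of the 15 genes with the largest rise (left) and the 15 with the largest fall (right) among genes above background on all 6 arrays; the x axis is the log2 signal minus the 75th percentile of the array, open points are the 3 control arrays and filled points the 3 clone 1 arrays. For each of these genes, which were chosen by this difference, the groups stand apart, as for Ccl2 with controls from 3.20 to 3.29 and clone 1 arrays from -3.23 to -3.02.

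Among genes measured on all 6 arrays Ccl2 fell most, and larger falls to background are given further on. Ccl2, a chemokine for monocytes, stood at 3.25, 3.20 and 3.29 in the controls and at -3.23, -3.18 and -3.02 in clone 1, an 83.6-fold fall (adjusted p = 2.9e-07). Cxcl5, a chemokine for neutrophils, went from 6.72, 6.43 and 6.53 to 2.32, 2.28 and 2.43. Complement C3 went from 4.97, 5.05 and 5.12 to 0.61, 0.64 and 0.82. Clone 1 kept a measurable signal for each of these genes, well below the lowest control. Ly6a, which encodes the antigen Sca-1, fell 75-fold, from 4.56, 4.64 and 4.97 to -1.55, -1.53 and -1.43. Tnni2, a troponin gene of fast muscle, fell 33.8-fold and the nucleobase carrier gene Slc43a3 37.9-fold. Agpat4, which encodes an acyltransferase of phospholipid synthesis, fell 21.1-fold, Gstk1, a glutathione transferase gene, 19.4-fold, and the serpin gene Serpinb1c 18.3-fold. Ly6c1, Ly6c2, Syt8, Baiap2l1, Ccn4 and Cd93 made up the rest of the 15, with falls between 18.1-fold and 71.3-fold.

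Some transcripts were measured in 1 group only. Of the genes with a symbol, 129 passed as higher while above background on no control array and on all 3 clone 1 arrays, and 115 passed as lower with the reverse pattern. For these the fold is a lower limit, set against the dimmest signal called well above background on each array. Vldlr, a receptor for lipoproteins and for reelin, reached 3.42, 3.27 and 3.35 in clone 1, at least 312-fold above the controls. Grem1, a secreted antagonist of bone morphogenetic proteins, reached 0.30, 0.46 and 0.16, at least 39.0-fold higher. Lower limits of further rises were 24.1-fold for the fatty acid elongase gene Elovl4, 21.5-fold for Arhgap44, 20.9-fold for the Polycomb-group gene Sfmbt2, 16.4-fold for Atp13a4 and 15.5-fold for Lemd1. Pcdh19, a protocadherin gene, Rab29 and Hunk followed at 15-fold, 13.8-fold and 13.5-fold.

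In the other direction Galnt6, which encodes an enzyme that starts mucin-type sugar chains, stood at 3.84, 3.76 and 3.98 in the controls and was at background on every clone 1 array, a fall of at least 445-fold. Il1a, the gene of interleukin 1 alpha, stood at 1.97, 2.11 and 1.88 in the controls and fell at least 121-fold. Irx1, a homeobox gene, fell at least 64.8-fold from 1.06, 1.1 and 1.07. The limits were 59.4-fold for Eid2, 58.7-fold for Serpinf1, 39.5-fold for the adrenergic receptor gene Adrb1, 38.2-fold for Wfdc2 and 31.4-fold for the phosphatase gene Inpp4b. Rhox4g and Rhox4a, at least 48.5-fold and 46.6-fold lower, are near-identical copies whose probes may read each other's transcript. Some genes named further on were above background on only part of the arrays of their dim group, so that their log2 difference includes arrays at background. In clone 1 these are Serpina3f, Birc3 and Icosl with 1 such array each, and Hoxa10, Rnf43, Ptgis and Vegfc with 2. In the controls they are Acta1, Adamts5 and Hoxd3 with 1 array, and Hoxc13, Pcdh18, Pdk2, Sema4f, Klra7, Klra9 and Gm2030 with 2.

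Other probes of the same genes gave a separate measurement on the same arrays. Where a gene's brightest probe passed, 2546 other probes of 2030 genes could be set beside it. Of these, 91.9% had the same sign and 63.5% also passed with it, while 46 passed with the opposite sign. Among genes changed at least 2-fold the shares were 96.7% and 87.8% of 451 probes, with 2 probes passing in the opposite direction. Among those changed at least 4-fold they were 97.3% and 93.8% of 112 probes, and 0 passed in the opposite direction by this test.

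**Figure D2:**
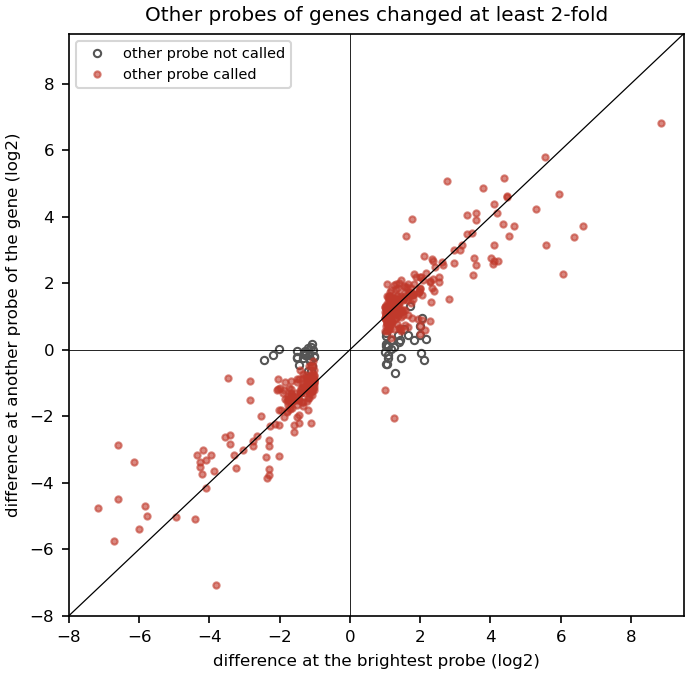
Difference between clone 1 and control at the brightest probe of a gene (x axis, log2) against the difference at another probe of the same gene (y axis, log2), for 451 probes of genes that changed at least 2-fold; filled points passed limma's test and open points did not, and the line marks equal values. Most points follow the line, and 2 filled points lie in the quadrant of opposite sign.

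Plagl1, an imprinted gene for a zinc finger factor, had the widest split between probes. Its brightest probe stood at -0.88, -1.06 and -1.09 in the controls and at -0.21, -0.03 and -0.42 in clone 1, a rise of 0.79 log2 (adjusted p = 0.00364). Another Plagl1 probe stood at -0.26, -0.18 and 0.08 in the controls and at -6.47, -6.72 and -7.05 in clone 1, a difference of -6.63 log2 (adjusted p = 4.27e-07). The mean of its probes therefore gave -2.92 log2. The opposed probes gave 1.26 and -2.04 log2 for Lmbr1, 1.01 and -1.22 log2 for Tmc6, 0.82 and -0.71 log2 for Dop1b and 0.71 and -0.70 log2 for Nfatc1. A further probe rose with the brightest one for Lmbr1 (1.12 log2, adjusted p = 0.000544, limma) and for Tmc6 (0.57 log2, adjusted p = 0.0086, limma). The falling Lmbr1 probe was dim, at -4.09, -4.12 and -3.76 in the controls and at -5.53, -6.20 and -6.37 in clone 1. Averaged over their probes, Lmbr1, Tmc6, Dop1b and Nfatc1 did not pass. Which transcripts these probes read was not tested, and the direction of the gene as a whole is uncertain in each case.

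Genes were then read in 53 lists of pathway members and cell markers. As 19.5% of all tested genes with a symbol were higher and 17.3% lower, a list with shares near these does not stand out. Lists furthest above the background for higher members were those of lysosomal proteins, cholesterol synthesis, interferon-induced genes and imprinted genes, between 48.0% and 55.6% of tested members. Those furthest above it for lower members were DNA replication (72.0%), DNA repair (55.2%), chemokines (54.5%) and NF-kB factors and targets (52.8%). No test over lists was made. Control and clone 1 values did not overlap in 7805 of the 14498 genes with a symbol (53.8%), and in 5333 of the 5336 that passed. Groups that stand apart, as said of single genes below, thus add little to their call. With the slide row as a term fewer genes passed, and 33 of the 71 list counts of at least 5 genes moved by more than 1.5 times, all of them downward. Leaving out single arrays moved 12 of these counts that far, and both kinds are given with their lists.

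**Figure D3:**
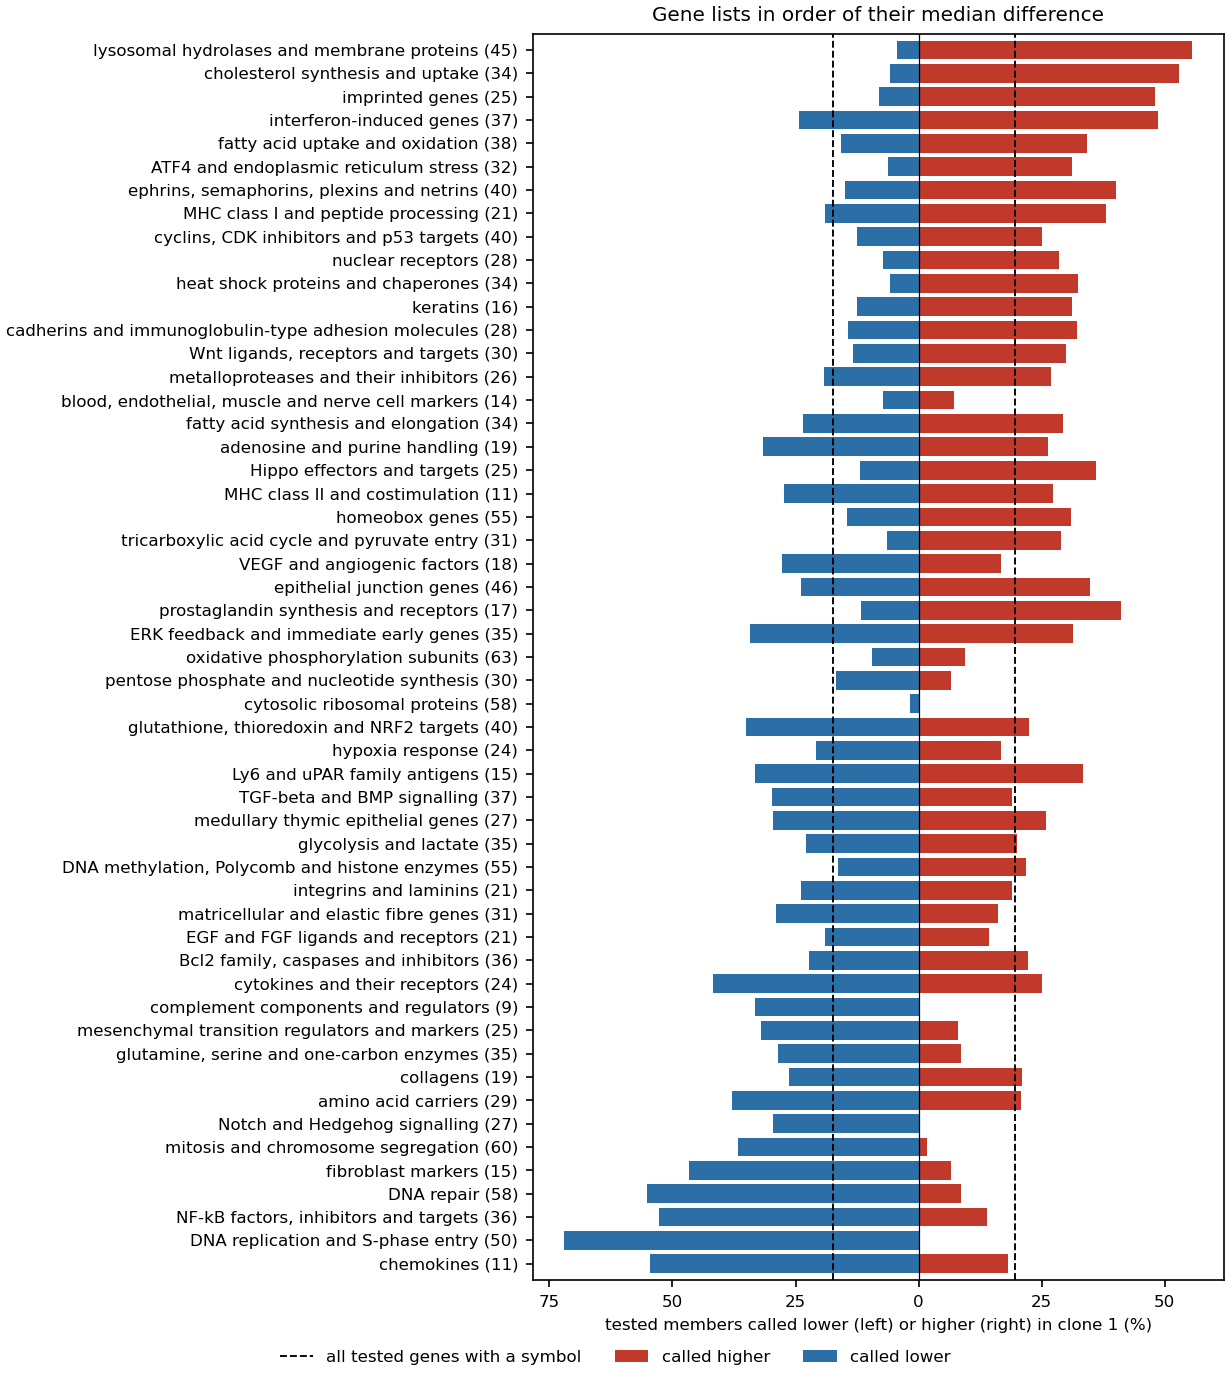
Share of the tested members of each gene list that passed as lower (bars to the left) or higher (bars to the right) in clone 1, in percent, with the number of tested members in brackets and lists in order of their median difference; dashed lines mark the shares over all tested genes with a symbol, 17.3% lower and 19.5% higher. The replication list reaches 72.0% lower and the lysosomal list 55.6% higher.

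More lysosomal genes rose than fell in clone 1. Of 45 tested members 25 rose, 2 fell and 18 did not pass, and the median difference was 0.43 log2, or 0.36, 0.42 and 0.54 log2 on the 3 clone 1 arrays. Ctsa, the protective protein of lysosomal sialidase, stood at 4.64, 4.63 and 4.85 in the controls and at 6.34, 6.28 and 6.44 in clone 1. Hexa, a subunit of the enzyme that degrades ganglioside, stood at 2.35, 2.39 and 2.54 and at 3.90, 3.91 and 4.01. Both sets of arrays stood apart for each gene. The rises were 1.65 log2 for Ctsa (SE 0.11) and 1.52 log2 for Hexa (SE 0.10). Manba, which encodes beta-mannosidase, rose by 1.80 log2 (SE 0.12). The cathepsin gene Ctsh rose by 4.47 log2 (SE 0.12), and Ctsc, the cathepsin that activates granule proteases, came up from background at least 9.85-fold. Lipa, the acid lipase gene, fell by 0.61 log2 and the channel gene Mcoln1 by 0.46 log2. Tfeb, a transcription factor known to drive lysosomal genes, did not pass (-0.18 log2). With the slide row as a term 11 members were higher and 1 lower, and Mcoln1 was then no longer among them.

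More genes of cholesterol synthesis and uptake rose than fell. Of 34 tested members 18 were higher, 2 lower and 14 did not pass, with a median of 0.40 log2 and medians of 0.36, 0.41 and 0.48 log2 by clone 1 array. Hmgcs1, which makes the precursor of mevalonate, stood at 3.18, 3.29 and 3.26 in the controls and at 4.62, 4.45 and 4.56 in clone 1. Dhcr7, the last enzyme of the pathway, stood at -1.64, -1.36 and -1.24 and at 0.16, 0.00 and 0.09. No clone 1 array reached into the control range for either. Hsd17b7 rose by 1.14 log2 and Sqle, which encodes squalene epoxidase, by 1.06 log2. Cholesterol exporters went both ways. Abca1 rose by 2.48 log2 (SE 0.17, adjusted p = 4.09e-05) while Abcg1 fell by 1.75 log2 (SE 0.11, adjusted p = 2.94e-05), and Scap, the escort of the sterol-sensing factors, fell by 0.68 log2. In the fit with the slide row 10 members were higher and 1 lower, without Scap.

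Sterol regulatory elements were looked for in the 250 bases before the start of each gene, in RefSeq sequences of GRCm38.p6, as TCACNCCAC on either strand. Among the 18 higher members 13 had a promoter in the table and 1 of these, Hmgcs1, held the letters, against 1.3% of the 11547 tested genes with a promoter and 1.05% of all 32851 promoters. The window of Hmgcs1 (chr13:119690101-119690350, plus strand) is shown because this gene leads the synthesis enzymes together with Dhcr7, with the match in capitals.
Hmgcs1: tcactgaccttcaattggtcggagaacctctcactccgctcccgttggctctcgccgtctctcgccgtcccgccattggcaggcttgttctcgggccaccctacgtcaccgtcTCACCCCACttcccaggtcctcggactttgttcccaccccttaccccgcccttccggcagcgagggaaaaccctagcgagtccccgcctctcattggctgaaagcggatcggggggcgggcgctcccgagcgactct

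Clone 1 had lower levels of genes that copy DNA and start S phase. Of 50 tested members 36 fell, 0 rose and 14 did not pass. At an unadjusted p under 0.05 in limma's test 1 of the 50 was higher. The median difference was -0.58 log2, with -0.63, -0.58 and -0.50 log2 by clone 1 array. Tyms, which makes thymidylate, stood at 4.95, 4.91 and 4.91 in the controls and at 3.56, 3.76 and 3.77 in clone 1. Orc1, a subunit of the origin recognition complex, stood at 1.29, 1.1 and 1.33 and at -0.06, 0.05 and 0.09. The control and clone 1 values of both genes did not overlap. Tyms fell by 1.22 log2, Orc1 by 1.21 log2, the factor gene E2f2 by 1.09 log2, and the replication genes Cdc45 and Cdc6 by 1.02 and 0.99 log2. E2f1 had the opposite sign without passing, at 0.51 log2 (adjusted p = 0.106). Fitted with the slide row, 22 members were lower and 0 higher, and Cdc6 stood just short of the threshold (adjusted p = 0.05).

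Sites of the E2F family, which drives genes of S phase, were searched as TTTGGCGC and TTTCCCGC on either strand in the same promoter windows. The first form was found in 3 of the 33 lower members with a promoter (9.09%), against 0.831% of the tested genes with a promoter, and in 0 of the 8 members that did not pass. The second form was found in 3 of the 33 as well and in 1 of the 8 (12.5%), against 1.84% of the tested genes. In the repair list it was found in 1 of 24 lower members (4.17%) and in 5 of 16 that did not pass (31.2%). Pola1, a subunit of the polymerase that starts each strand, and Cdc6 show the largest fall among members with the first and the second form. Pola1 stood at 2.81, 2.90 and 2.79 in the controls and at 1.86, 1.96 and 2.19 in clone 1, and Cdc6 at 0.53, 0.38 and 0.44 and at -0.59, -0.90 and -0.14. Their windows (chrX:93632156-93632405, minus strand and chr11:98907901-98908150, plus strand) are given with the matched letters in capitals, which are a description and not a site shown to be bound.
Pola1: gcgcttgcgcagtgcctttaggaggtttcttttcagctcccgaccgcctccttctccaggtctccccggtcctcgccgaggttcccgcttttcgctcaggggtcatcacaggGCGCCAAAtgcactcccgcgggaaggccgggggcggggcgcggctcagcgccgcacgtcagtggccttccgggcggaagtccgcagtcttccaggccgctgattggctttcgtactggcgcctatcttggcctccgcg
Cdc6: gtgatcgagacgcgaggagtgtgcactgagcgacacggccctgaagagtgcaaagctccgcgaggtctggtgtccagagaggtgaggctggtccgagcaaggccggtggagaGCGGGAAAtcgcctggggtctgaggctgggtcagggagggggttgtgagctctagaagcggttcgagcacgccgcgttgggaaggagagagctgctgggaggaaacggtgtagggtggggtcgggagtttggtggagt

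In the DNA repair and mitosis lists, too, more genes fell than rose. Of 58 tested repair genes 32 fell and 5 rose, with a median of -0.48 log2. Brip1, which encodes a helicase of crosslink repair, stood at -0.42, -0.26 and -0.16 in the controls and at -1.89, -1.74 and -1.42 in clone 1, a fall of 1.40 log2 (SE 0.15). Xrcc2 and Exo1 fell by 1.38 and 1.14 log2. The 5 that rose were Neil1, Mgmt, Ercc4, Xrcc4 and Polq, by 0.38 to 0.69 log2, and 3 of them passed without control array 1, without control array 3 or without clone 1 array 3. Polq passed in none of the fits that left out control array 1, control array 3 or any clone 1 array, with an adjusted p between 0.0639 and 0.126, and Xrcc4 reached 0.0579 to 0.0736 without control array 1, control array 3 or clone 1 array 3. Among 60 mitosis genes 22 fell and 1 rose, at a median of -0.31 log2, or 14 without control array 2. The fit with the slide row called 18 repair genes and 9 mitosis genes lower. It called 1 repair gene higher, as Neil1, Ercc4, Xrcc4 and Polq did not pass (adjusted p between 0.0618 and 0.314). Cdc25b, a phosphatase that starts mitosis, fell by 1.78 log2 and the kinetochore gene Spc24 by 1.73 log2. Tpx2, a spindle assembly factor, was the exception, at 3.21, 3.43 and 3.31 in the controls and at 4.03, 3.94 and 4.13 in clone 1, a rise of 0.72 log2. In the list of cyclins, CDK inhibitors and p53 targets 10 of 40 rose and 5 fell, or 3 without control array 1 or with the slide row as a term. The CDK inhibitor genes Cdkn2d and Cdkn1a rose by 0.87 and 0.75 log2 and the apoptosis gene Pmaip1 by 1.20 log2, while Trp53 itself fell by 0.64 log2. Cell death genes had 8 of 36 higher and 8 lower, and 5, 5, 4 and 3 higher without control array 1, clone 1 array 2 and clone 1 array 3 and with the slide row. The inflammatory caspase gene Casp1 (-1.75 log2) and the pore gene Gsdmd (-1.51 log2) were among the lower.

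**Figure D4:**
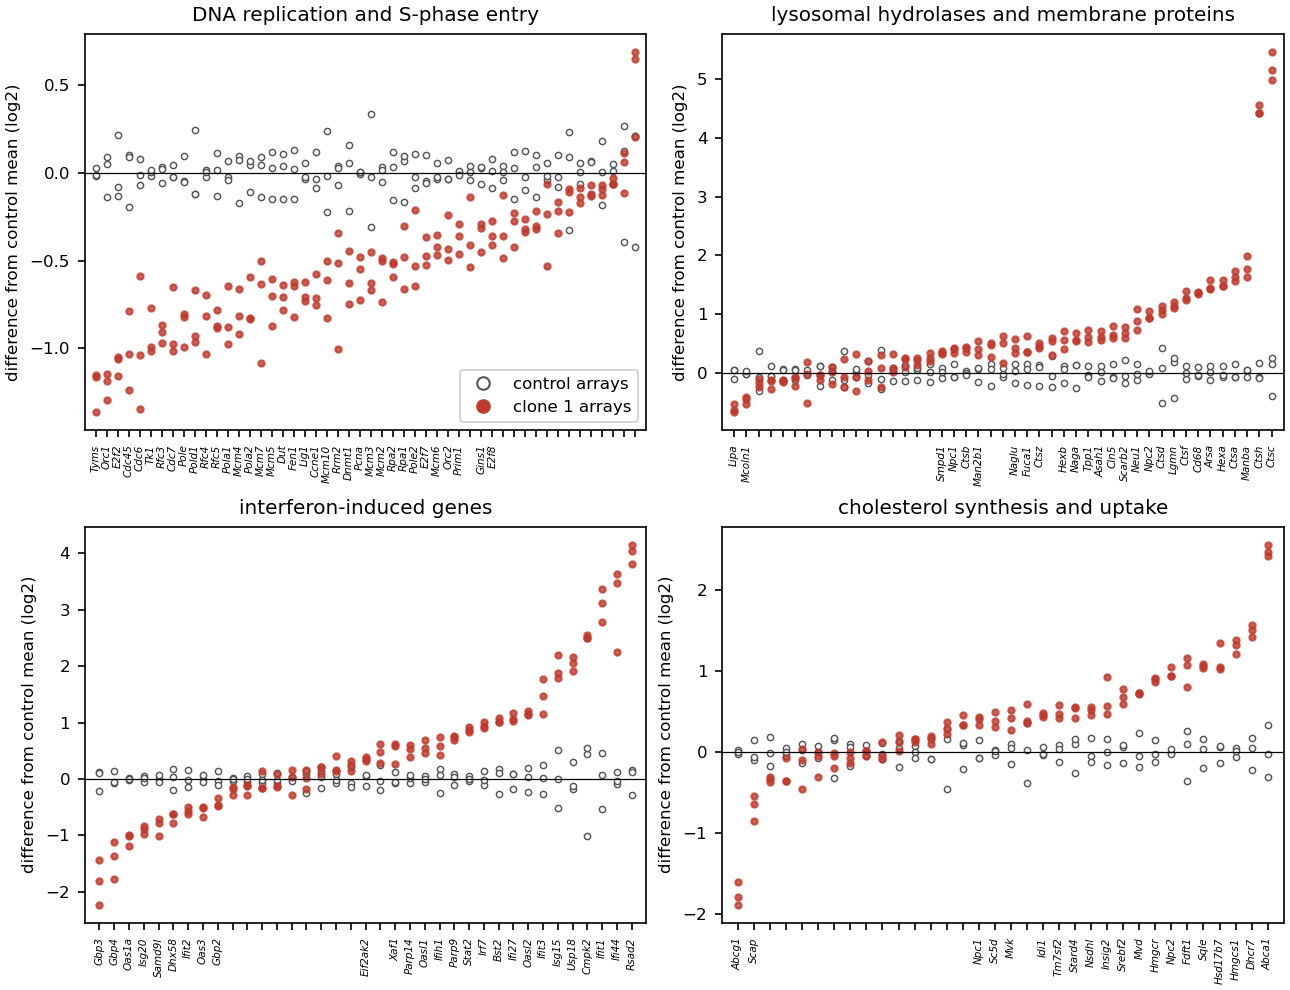
Difference of every array from the control mean, in log2, for each tested member of 4 gene lists ordered by their mean difference, with the members that passed named on the x axis; open points are the 3 control arrays and filled points the 3 clone 1 arrays, and the y axes differ between panels. Most replication genes lie below the controls in all clone 1 arrays, most lysosomal and cholesterol genes lie above, and the interferon list runs from Gbp3 at -1.83 log2 to Rsad2 at 4.0 log2.

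Chemokine and cytokine genes changed in both directions. Of 11 tested chemokine genes 6 fell and 2 rose. Cxcl1, a chemokine for neutrophils, stood at 5.47, 5.37 and 5.29 in the controls and at 1.29, 1.39 and 1.22 in clone 1. Ccl20 fell by 4.40 log2 with 2 of the 3 clone 1 arrays above background, and Cx3cl1, a membrane-bound chemokine, fell by 2.72 log2. Those that rose were Ccl5, from -2.19, -2.46 and -2.48 to -0.07, 0.15 and 0.18, and Cxcl10, which is known as interferon-induced and was at least 7.93-fold above a control group at background. Among 24 cytokine and receptor genes 10 fell, 6 rose and 8 did not pass. Csf3, the gene of granulocyte colony-stimulating factor, fell by 1.55 log2, and Csf2 fell at least 1.35-fold to background. Tslp, a cytokine of epithelia, stood at -4.15, -4.73 and -4.47 in the controls, where 2 arrays were above background, and at -0.70, -0.89 and -0.73 in clone 1. Il18, Tnfsf15, Il34 and Il11 rose by 1.59, 1.35, 1.34 and 1.13 log2. Of 9 complement genes 3 fell, C3, Clu (1.30 log2) and C1ra (1.07 log2), and 0 rose, also at an unadjusted p under 0.05 in limma's test.

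Factors, inhibitors and targets of NF-kB numbered 36, of which 19 fell, 5 rose and 12 did not pass, at a median of -0.51 log2. Nfkbia, the inhibitor gene that NF-kB itself induces, stood at 4.06, 3.90 and 3.93 in the controls and at 2.42, 2.47 and 2.46 in clone 1. Traf1, an adaptor of tumour necrosis factor receptors, stood at 0.20, 0.01 and 0.02 and at -2.78, -2.63 and -2.71. Neither overlapped between the groups. The falls were 1.52 log2 for Nfkbia, 2.79 log2 for Traf1, 2.31 log2 for Birc3 and 1.72 log2 for Nfkbiz. The Toll-like receptor genes split, with Tlr2 lower by 1.54 log2 and Tlr3, a sensor of double-stranded RNA, higher by 2.55 log2, and Tlr4 higher by 1.06 log2. The letters GGGANNTTC of a kappaB-like site were in the promoter windows of 2 of the 15 lower and 1 of the 4 higher members with a promoter, and in 3.59% of the tested genes.

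Interferon-induced genes changed in both directions, with more higher than lower. Of 37 tested members 18 rose and 9 fell, at a median of 0.35 log2. Rsad2, which encodes the antiviral protein viperin, stood at -4.36, -3.92 and -3.96 in the controls and at -0.27, -0.04 and 0.08 in clone 1. Ifit1, whose product binds viral RNA, stood at -4.75, -4.15 and -3.76, with 2 of these arrays above background, and at -1.44, -1.1 and -0.86. Both were well apart between the groups. Gbp3, a guanylate-binding protein gene, went the other way, from -1.95, -1.61 and -1.63 to -3.54, -3.96 and -3.17. Oas1a, which makes the activator of a viral RNA nuclease, went from 0.62, 0.66 and 0.65 to -0.54, -0.36 and -0.35. The differences were 4.0 log2 for Rsad2 (SE 0.16), 3.09 log2 for Ifit1 (SE 0.26), -1.83 log2 for Gbp3 (SE 0.21) and -1.06 log2 for Oas1a (SE 0.10). Ifi44 rose at least 7.07-fold from background and Usp18 by 2.05 log2, while Isg20 fell by 0.90 log2 and Samd9l by 0.83 log2.

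The core letters of the interferon response element, GAAANNGAA on either strand, were present in the promoter windows of higher and lower members alike. They were found in 7 of 14 higher members with a promoter, in 4 of 7 lower members and in 1 of 7 that did not pass, against 7.28% of the tested genes. Windows of the 2 members with the largest rise and the 2 with the largest fall among those holding the letters are printed so that the opposed pairs can be compared. They are Rsad2 (chr12:26456453-26456702, minus strand), Ifit1 (chr19:34640639-34640888, plus strand), Gbp3 (chr3:142559794-142560043, plus strand) and Oas1a (chr5:120907526-120907775, minus strand), each read 5′ to 3′ towards the gene with every match in capitals. Gbp3 has 2 promoters in the table, and the first that holds the letters is shown.
Rsad2: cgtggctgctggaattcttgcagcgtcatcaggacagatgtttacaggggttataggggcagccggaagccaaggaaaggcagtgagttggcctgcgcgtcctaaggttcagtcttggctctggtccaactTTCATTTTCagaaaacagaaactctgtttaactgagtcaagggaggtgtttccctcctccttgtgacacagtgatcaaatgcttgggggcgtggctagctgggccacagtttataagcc
Ifit1: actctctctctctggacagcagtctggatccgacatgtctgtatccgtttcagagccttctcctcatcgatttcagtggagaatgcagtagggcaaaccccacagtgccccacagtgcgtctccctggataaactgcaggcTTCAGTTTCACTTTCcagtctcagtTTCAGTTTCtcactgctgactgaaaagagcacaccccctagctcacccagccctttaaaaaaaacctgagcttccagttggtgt
Gbp3: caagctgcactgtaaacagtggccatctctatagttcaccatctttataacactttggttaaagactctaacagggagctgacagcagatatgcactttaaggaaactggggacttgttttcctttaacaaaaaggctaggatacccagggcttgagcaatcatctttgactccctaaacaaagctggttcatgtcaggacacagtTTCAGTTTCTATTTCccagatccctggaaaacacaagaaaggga
Oas1a: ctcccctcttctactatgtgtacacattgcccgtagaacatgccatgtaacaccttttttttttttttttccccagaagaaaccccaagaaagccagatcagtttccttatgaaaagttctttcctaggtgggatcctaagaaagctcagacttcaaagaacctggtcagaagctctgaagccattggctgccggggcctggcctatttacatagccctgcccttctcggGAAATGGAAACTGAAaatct
The window of Rsad2 holds 1 match, that of Ifit1 3 and those of Gbp3 and Oas1a 2 each, so the number of matches does not separate the rising from the falling pair.

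Antigen presentation genes also split. Of 21 tested genes of MHC class I and peptide processing 8 rose, or 5 with the slide row, and 4 fell. H2-D1, a classical class I gene, stood at 3.65, 3.81 and 3.77 in the controls and at 4.68, 4.87 and 4.76 in clone 1, and H2-Q7 (1.05 log2) and the transporter gene Tap2 (0.98 log2) rose with it. The class I genes are close relatives, so their probes may read more than 1 of them. Cd1d1, which presents lipids, fell at least 7.18-fold to background. Of 11 genes of MHC class II and costimulation 3 rose and 3 fell. H2-DMb1, which helps load class II molecules, rose by 3.61 log2 and the invariant chain gene Cd74 by 1.28 log2, while the costimulatory genes Cd80 and Icosl fell by 2.31 and 1.23 log2.

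Epithelial genes changed in both directions. Of 16 keratin genes 5 rose and 2 fell, and of 46 junction genes 16 rose and 11 fell, or 10 and 6 with the slide row. Krt5, a keratin of basal and medullary epithelium, stood at 6.84, 6.57 and 7.18 in the controls and at 5.35, 5.63 and 5.64 in clone 1, a fall of 1.32 log2. Krt15 rose from -3.73, -3.26 and -2.97 to 0.59, 0.61 and 0.61. Krt17 rose from 4.56, 4.75 and 4.72 to 6.80, 6.90 and 6.88. In none of these 3 keratin genes did the groups overlap, which held for 53.8% of all tested genes with a symbol. The claudin genes differed in direction, Cldn6 lower by 5.83 log2 with 2 of 3 clone 1 arrays above background and Cldn4 higher by 1.52 log2. Desmosomal Dsg3 fell by 2.24 log2, Epcam by 1.1 log2 and Cdh3 by 1.11 log2, whereas the tight junction genes Tjp3 and Crb3 rose by 1.73 and 1.47 log2 and the protease gene Prss8 by 1.37 log2. In the wider list of medullary thymic epithelial genes 7 of 27 rose and 8 fell. Avil rose by 1.51 log2, and Tbx1 fell by 1.0 log2.

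Of 25 tested genes tied to mesenchymal states 8 fell and 2 rose, and of 15 fibroblast genes 7 fell and 1 rose. Vim, the gene of vimentin, stood at 6.27, 5.70 and 5.84 in the controls and at 4.67, 4.82 and 4.83 in clone 1. Snai1, a repressor of epithelial genes, fell by 2.51 log2 with 1 clone 1 array above background. Fn1, the gene of fibronectin, rose by 1.30 log2, from 5.10, 4.70 and 5.08 to 6.13, 6.48 and 6.17. Summed fibroblast markers moved the same way, as given above, but Pdgfra weighs most in that sum and is also in this list. The sum is thus no separate measurement, and its part in these falls was not tested. The fibroblast genes Fbln1 and Pdgfra fell by 2.46 and 1.30 log2, and Fstl1 rose by 1.87 log2. Of 14 genes of blood, endothelium, muscle and nerve 1 rose, Acta1 (1.04 log2), and 1 fell, Tubb3 (0.96 log2).

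Matrix and adhesion lists held changes in both directions. For collagens, for metalloproteases and for integrins and laminins, both shares lay near or slightly above those over all tested genes with a symbol. These lists thus do not stand out by their counts. Among 19 collagen genes 4 rose and 5 fell. Chains of basement membrane collagen IV rose, Col4a5 by 2.36, Col4a3 by 1.52 and Col4a4 by 0.98 log2, and Col16a1, Col17a1 and Col7a1 fell by 1.98, 1.71 and 1.42 log2. Of 31 matricellular and elastic fibre genes 5 rose and 9 fell. Thbs2 rose by 2.57 log2 and Efemp1 at least 7.17-fold from background, and Tnc, the tenascin gene, fell by 1.89 log2. Metalloproteases and their inhibitors had 7 higher and 5 lower of 26, with Adamts5 higher by 1.76 log2, Mmp16 at least 2.79-fold higher, and Adam19 and Adam8 lower by 2.11 and 1.72 log2. Of 21 integrin and laminin genes 4 rose and 5 fell, or 3 without control array 1, control array 2, clone 1 array 2 or clone 1 array 3 and with the slide row. Itga7, an integrin subunit that binds laminin, went from -1.96, -2.01 and -1.95 to 1.31, 1.41 and 1.33, while the laminin gene Lama3 fell by 1.54 log2. Of 28 cadherin and immunoglobulin-type adhesion genes 9 rose and 4 fell, with Pcdh18 and Cadm1 higher by 2.58 and 2.36 log2. Pcdh7 was lower by 1.52 log2 at its brightest probe only. Its other probes gave -0.04 and -0.25 log2 and did not pass limma's test (adjusted p of 0.924 and 0.26).

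Of 40 tested ephrin, semaphorin, plexin and netrin genes, which encode guidance molecules, 16 rose and 6 fell, or 3 with the slide row. Sema3b, a secreted semaphorin, stood at -3.20, -3.13 and -2.95 in the controls and at 1.06, 0.83 and 0.86 in clone 1. Sema7a, a membrane-anchored one, stood at -2.39, -2.69 and -2.89 and at 0.75, 0.92 and 1.19. The groups of both were apart by several log2 units. Sema4f rose by 2.98 log2 and Slit2 by 2.22 log2, and Sema4g at least 2.31-fold from background. Sema4a moved the other way, from 0.62, 0.89 and 0.92 to -1.89, -1.86 and -1.89. The receptor gene Plxnb1 and the ligand gene Efnb1 fell by 0.77 and 0.67 log2. Genes that handle adenosine and purines had 5 of 19 higher, or 3 without clone 1 array 3 and with the slide row, and 6 lower. Nt5e led the rises, and the nucleotidase gene Entpd2 and the receptor gene P2ry2 fell by 1.29 and 1.23 log2.

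Among growth factor genes, Areg and Btc, ligands of the EGF receptor, rose, and Fgf7 and Nrg1 fell. Areg, the gene of amphiregulin, stood at -0.53, -0.74 and -0.93 in the controls and at 1.35, 1.26 and 1.23 in clone 1. Btc, the gene of betacellulin next to it on chromosome 5, stood at -2.89, -2.98 and -3.01 and at -0.95, -0.61 and -0.43. Fgf7, a fibroblast growth factor for epithelia, fell from 2.19, 2.44 and 2.5 to -0.72, -0.79 and -0.31. In the whole list 3 of 21 rose and 4 fell, close to the background. ERK feedback and immediate early genes had 11 of 35 higher, or 7 with the slide row, and 12 lower. Klf2, Dusp1, Spry1, Fos and Dusp4 rose by 3.06, 2.66, 2.57, 2.07 and 1.83 log2, and Etv1, Egr1, Fosl1, Dusp6 and Dusp7 fell by 1.70, 1.02, 0.99, 0.90 and 0.83 log2.

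In the list of TGF-beta and BMP signalling 7 of 37 rose, or 4 with the slide row, and 11 fell. Bmp4 and its antagonist Grem1 rose, and Bmp6 fell at least 3.92-fold to background. Id2, a target of BMP signalling, stood at -1.0, -0.86 and -0.99 in the controls and at -4.37, -3.95 and -4.06 in clone 1, and Id3 and Tgfbi fell by 1.69 and 2.88 log2. Of 30 Wnt ligands, receptors and targets 9 rose, or 5 with the slide row, and 4 fell, with Wnt6 at least 8.67-fold higher from background and the ligase gene Rnf43, a brake on Wnt receptors, lower by 3.00 log2. In Notch and Hedgehog signalling 8 of 27 fell and 0 rose, while 1 was higher at an unadjusted p under 0.05 in limma's test. Gli2, a factor of the Hedgehog pathway, fell by 3.53 log2 with 1 clone 1 array above background, Dhh fell at least 5.31-fold to background, and the Notch ligand genes Dll1 and Jag1 fell by 1.19 and 1.11 log2. Of 25 Hippo effectors and targets 9 rose and 3 fell, with 5 higher without control array 1, control array 2, clone 1 array 1 or clone 1 array 3, and 3 with the slide row. Amot, which encodes a scaffold of that pathway, fell by 4.87 log2 with 1 clone 1 array above background, and the coactivator gene Wwtr1 rose by 1.16 log2. Among 18 angiogenic factors 3 rose and 5 fell, or 3 with the slide row, led by Vegfc, which was lower by 3.80 log2. Prostaglandin synthesis and receptor genes had 7 of 17 higher and 2 lower, or 4 higher without control array 2, clone 1 array 1 or clone 1 array 3, and 3 with the slide row. Their changes included Pla2g7 higher by 1.99 log2, Pla2g5 at least 2.71-fold higher and the prostacyclin synthase gene Ptgis lower by 3.87 log2.

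Metabolic lists differed in how far they moved. Of 35 glycolysis genes 7 rose and 8 fell, or 5 with the slide row. The pyruvate dehydrogenase kinases split, Pdk4 and Pdk2 higher by 1.96 and 2.05 log2 and Pdk1, from 2.56, 2.35 and 2.45 to 1.12, 1.37 and 1.43, lower by 1.15 log2. Aldoc and Eno3, isoforms of glycolytic enzymes, rose by 1.73 and 1.5 log2. In the tricarboxylic acid cycle and pyruvate entry 9 of 31 rose, or 4 with the slide row, and 2 fell, with Me3, Idh1 and Dlat higher by 1.43, 0.93 and 0.90 log2. Subunits of oxidative phosphorylation were below the background in both directions, 6 of 63 higher, or 3 with the slide row, and 6 lower, or 3 lower without control array 2, at a median of -0.01 log2. Fatty acid uptake and oxidation had 13 of 38 higher, or 8 without control array 1 or clone 1 array 1 and 6 with the slide row, and 6 lower, with Cpt1a, the entry enzyme of mitochondria, higher by 0.94 log2, and Eci1 and Acox2 lower by 3.65 and 1.86 log2. In fatty acid synthesis and elongation 10 of 34 rose and 8 fell, or 6 and 5 with the slide row. Besides Elovl4 and Agpat4, the desaturase genes Fads3 and Fads1 fell by 1.54 and 1.12 log2.

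Pentose phosphate and nucleotide genes were near the background for lower members, with 5 of 30 lower (16.7%) and 2 higher at a median of -0.016 log2. Those that fell included Impdh2 (1.25 log2) and Cad (0.93 log2), both of nucleotide synthesis. Of 35 glutamine, serine and one-carbon genes 3 rose and 10 fell, with Prodh lower by 1.91 log2 and Shmt1 by 1.03 log2. Amino acid carriers had 6 of 29 higher and 11 lower, or 7 lower with the slide row, including Slc1a5, the main glutamine carrier, lower by 1.22 log2. Glutathione, thioredoxin and NRF2 target genes had 9 of 40 higher and 14 lower, or 5 and 7 with the slide row, with Gstm2 lower by 2.03 log2 and Gsta2 higher by 1.36 log2. The hypoxia list was near the background with 4 of 24 higher and 5 lower, Adm higher by 1.86 log2 and P4ha2 lower by 1.41 log2.

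Among stress genes, heat shock proteins and chaperones had 11 of 34 higher, or 5 with the slide row, and 2 lower. Dnaja4 rose by 2.76 log2, Hspa2 by 1.99 log2, and the small heat shock genes Hspb2 and Cryab, which lie side by side on chromosome 9, by 1.83 and 1.79 log2. The list of ATF4 and endoplasmic reticulum stress had 10 of 32 higher and 2 lower, with the chaperone genes Calr and Hyou1 higher by 1.02 and 0.78 log2 and the stress gene Nupr1 lower by 1.28 log2.

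Homeobox genes had 17 of 55 higher, or 10 with the slide row, and 8 lower. Hoxd3 and Hoxc13 rose by 2.44 and 1.90 log2, and Hoxa10 and Msx1 fell by 4.26 and 2.68 log2. Of 25 imprinted genes 12 rose and 2 fell, at a median of 0.37 log2. Mest, expressed from the paternal copy, stood at -3.96, -3.53 and -3.86 in the controls and at -1.71, -1.84 and -1.67 in clone 1. Zrsr1, also paternal, rose by 1.25 log2, and Sfmbt2 was at background in the controls as given above. Asb4 fell at least 1.98-fold to background. Xist, the RNA that coats an inactive X chromosome, was in the same list. It was above background on no control array and stood at -1.72, -1.88 and -2.06 in clone 1, at least 8.54-fold higher (adjusted p = 1.29e-05). The 466 tested genes of the X chromosome beside it had a median difference of -0.05 log2, with 88 higher and 90 lower. DNA methylation, Polycomb and histone enzymes had 12 of 55 higher, or 6 without clone 1 array 3 and with the slide row, and 9 lower, or 4 without control array 2 and 3 with the slide row, and Hdac11 rose most (2.06 log2). Nuclear receptors had 8 of 28 higher and 2 lower, with the clock gene Nr1d1 higher by 1.41 log2 and Vdr, the vitamin D receptor gene, lower by 1.02 log2. Of 58 cytosolic ribosomal protein genes 1 passed, Rpl37, at least 2.04-fold lower (adjusted p = 0.0289), and the median was -0.02 log2. Rpl37 did not pass without control array 1, 2 or 3 (adjusted p of 0.0607, 0.084 and 0.0809), and 0 ribosomal genes were higher in limma's test, with 1 at an unadjusted p under 0.05.

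Ly6 and uPAR family antigens had 5 of 15 higher and 5 lower. In their order on chromosome 15, Psca, Slurp1, Lynx1 and Ly6e rose, and Ly6a, Ly6c1, Ly6c2 and Ly6f fell, Ly6f at least 7.35-fold to background. Psca went from -4.28, -4.40 and -4.06 to -1.57, -1.67 and -1.77, and Slurp1 from -2.39, -2.21 and -2.60 to -0.87, -0.96 and -0.93. Ly6c1 and Ly6c2 are near-identical, so their probes may read each other's transcript.

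Position along the genome was then examined for all genes, in the gene order of GRCm38.p6, with no coordinates since the file headers name another build. Runs of at least 3 adjacent tested genes that all changed at least 2-fold in the same direction numbered 24, of which 18 were higher and 6 lower, with 81 genes in all. The longest lower run held Ly6a, Ly6c1, Ly6c2, Ly6f and 9030619P08Rik. The longest higher run held Slx and its neighbours Gm1993, Gm5168, Gm2030 and Gm10487 on the X chromosome, copies of 1 multigene family whose probes may not be separate. Serpina3b, Serpina3f, Serpina3h and Serpina3i on chromosome 12 fell together, by 1.59 to 7.17 log2. Serpina3h among them did not pass without any 1 control array or without clone 1 array 1 (adjusted p between 0.0567 and 0.104), nor with the slide row as a term (adjusted p = 0.286). On chromosome 4 the fall took in Cyp2j8, Cyp2j6, Cyp2j9 and Nfia, by 1.1 to 2.77 log2. On chromosome 5 Grm3 (at least 7.75-fold from background), Sema3a (1.71 log2), Speer3 (1.94 log2) and Sema3e (1.23 log2) rose side by side. Sema3a and Sema3e are both semaphorin genes, while the run as a whole is not made of 1 family. Klra4, Klra8, Klra9 and Klra7, a family of receptors of natural killer cells on chromosome 6, rose as well, Klra4 by 2.77 log2 from -0.90, -0.72 and -0.75. In the controls Klra8 was above background on no array, and Klra9 and Klra7 on 2 each. The Klra genes are close relatives, as are the Serpina3 genes, so a probe may read more than 1 gene of its family. Klra8 and Klra9 did not pass with the slide row as a term (adjusted p of 0.0558 and 0.107).

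Median differences also varied between chromosomes and between stretches of adjacent genes. Among the autosomes and the X chromosome, the median over tested genes was highest on chromosome 17, at 0.17 log2, where 230 of 737 genes rose and 77 fell. It was lowest on chromosome 19, at -0.19 log2, where 66 of 522 rose and 154 fell. By clone 1 array these medians were 0.16, 0.22 and 0.18 log2 on chromosome 17 and -0.20, -0.17 and -0.17 log2 on chromosome 19. Chromosomes 13 and 12 followed with 0.15 and 0.14 log2. The 14493 genes placed on the autosomes and the X chromosome were cut into 289 windows of 48 to 53 adjacent genes, a choice made after the chromosome medians were seen. To gauge the spread of arrays, each control array was set against the mean of the other 2 controls in the same windows. Those control medians ran from -0.11 to 0.15 log2, and 0 of 867 lay beyond 0.2 log2 in either direction, whereas 191 of the 867 medians of single clone 1 arrays did. The SD of the window medians was 0.03 to 0.04 log2 for control arrays and 0.16 to 0.17 log2 for clone 1 arrays. The control medians hold the spread of arrays only, while clone 1 medians also hold the differences of single genes between the groups. Windows of genes in shuffled order were not compared, so this contrast does not by itself show an effect of position.

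On all 3 clone 1 arrays at once, 24 windows were higher and 14 lower by more than 0.2 log2. They lay next to each other in several places. On chromosome 2, 3 windows in a row from Snph to Acot8 had medians of 0.37, 0.48 and 0.29 log2, with 23, 29 and 17 of 49 genes higher. On chromosome 3, 3 windows from Man1a2 to Pla2g12a had medians of -0.47, -0.46 and -0.32 log2, with 24, 29 and 24 of 49 genes lower. Chromosome 16 held 2 such windows from Parp14 to 4930453N24Rik, at 0.38 and 0.46 log2, and chromosome 5 held 2 from Lrrc17 to Rbks, at -0.29 and -0.46 log2. On chromosome 9 the windows from Ccdc159 to Elovl4 included 5 that were higher, between 0.30 and 0.46 log2, and 2 further along, from Twf2 to Elp6, were lower by 0.28 and 0.29 log2. Chromosome 17 held 6 higher windows, and chromosome 19 held 3 lower ones. The array of clone 1 that shares the row of the controls gave medians of 0.33, 0.37 and 0.24 log2 for the chromosome 2 windows and -0.43, -0.48 and -0.32 log2 for those of chromosome 3. Without genes that changed at least 2-fold, 30 windows stayed above and 16 below, where the fitted medians over all genes had given 34 and 21. The differences of 81.6% of the genes from Ncoa6 to Actr5 on chromosome 2 were positive, and those of 16.3% of the genes from En2 to Rbks on chromosome 5. Genes named at the edges of windows serve as position marks only. These are levels of RNA, and what sets the shifts was not tested.

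**Figure D5:**
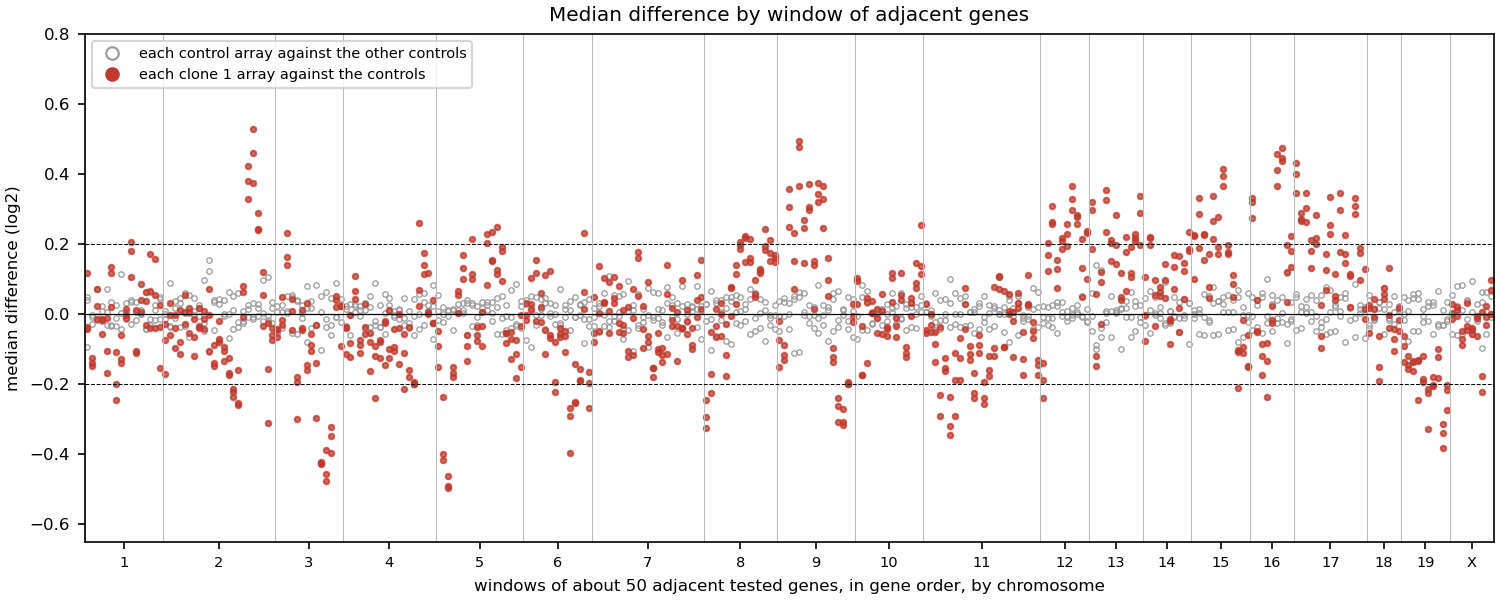
Median difference over windows of about 50 adjacent tested genes (y axis, log2), in gene order along each chromosome (x axis); red points are the 3 clone 1 arrays against the control mean, grey open points are each control array against the mean of the other controls, and dashed lines mark 0.2 log2 on either side. Clone 1 arrays move together in runs of windows, up to 0.53 log2 on chromosome 2 and down to -0.496 log2 on chromosome 5. Control arrays stay between -0.11 and 0.15 log2, which shows the spread of arrays only.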

How the data were processed

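RNA of 6 samples was read on single-colour Agilent SurePrint G3 mouse arrays, and only clone 1 and control arrays were used. The deposited values are background-corrected intensity values on a linear scale, and the submitters' processing notes name Agilent Feature Extraction, version 11.5.11, as the tool the authors used. Control spots and spots flagged as outliers were left out, and spots of 1 probe were averaged. From each array's log2 intensity its 75th percentile over 56605 probes was subtracted. Probes well above background on all arrays of at least 1 group were kept, and the brightest probe stood for a gene. Gene symbols were assigned by matching the transcript names in the array files to RefSeq annotation. This gave a symbol to 33006 probes, and 23599 probes matched no single symbol. Groups were compared with limma 3.58.1 in R 4.3.3 (lmFit and eBayes, 4 residual degrees of freedom), with Benjamini-Hochberg adjusted p under 0.05 as the threshold over all 24830 transcripts. The same code was tested on simulated data.

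The text names the 15 largest changes each way among genes above background on all 6 arrays, the 10 largest lower limits each way, up to 5 changed members of each list per direction, genes with opposed probes and the 6 longest runs of adjacent genes. Pola1 was named after its values were seen, for its promoter. Members and lists were chosen with earlier results of these data known. Gene order and promoters are from RefSeq GRCm38.p6. Alternatives were median and quantile scaling, normexp background correction, averaging all probes of a gene, no filter, a stricter filter on the 6 arrays, trended and robust variance, array weights, the slide row as a term, row 1 alone, and leaving out each array. The 6 arrays and 1 clone limit the precision. Some items are not reported here.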

Additional observations from a re-analysis of the deposited data

How the results depend on the processing

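No paired analysis was possible because the replicate numbers only follow accession order and pair no samples. Of the 463 named genes that passed, between 429 and 463 kept their call under median and quantile scaling, normexp, the mean of all probes, array weights and trended variance, 405 without the filter, 397 with the slide row as a term and 363 on the row 1 arrays alone. Without any 1 array 435 to 443 kept it. Most of these genes were named for the size of their difference in the same data, so they keep their call more readily than others. Of all 8022 transcripts that passed, 4117 also passed with the slide row as a term and 6116 to 6436 without any 1 array. The counts of transcripts were 2381 higher and 2567 lower without the filter, where 45616 were tested, 2056 and 2375 with the slide row as a term, and 1733 and 2081 on the row 1 arrays. At an adjusted p under 0.01 they were 2276 and 2424. Without any 1 array they ran from 2986 to 3109 higher and from 3272 to 3870 lower. Changes of at least 2-fold numbered 432 higher and 328 lower genes with normexp, which draws dim probes together by its offset. Gtf2i differed by -0.46 log2 without the filter but did not pass (adjusted p = 0.0643), and by -0.44 log2 with the slide row as a term or on the row 1 arrays (adjusted p of 0.0907 and 0.114). Averaged over all probes, Ctps2 (-0.019 log2), Fbn2 (-0.30 log2) and Plagl1 (-2.92 log2) changed sign. Windows of adjacent genes, added after seeing the data, numbered 20 higher and 10 lower with normexp, 85 and 65 of 581 windows of 25 genes, and 14 and 9 of 143 windows of 100 genes. Set against the 5th percentile of signals above background, all 20 lower limits of fold fell, to between 0.614 and 0.719 of the values given. Genes near background are limited by signal: 129 higher and 115 lower genes have only such a limit. List medians did not move with these genes at their limits. Each list held few such genes, and a median moves only where a value crosses the middle of its list, so this says little. The cause of each change was not tested.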
